A study of Saccharomyces cerevisiae with 8 samples.

Results

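The nuclear genes for proteins of the mitochondrial ribosome were compared between mcd1-1 mutant and wild-type (WT) cells of budding yeast. Members were taken by gene name: MRP, MRPL, MRPS or RSM followed only by a number, plus NAM9, SWS2, IMG1, IMG2 and YML6. The rule found 71 of the 6596 gene models in the deposited count table. Of these, 40 encode proteins of the large subunit and 30 proteins of the small subunit, and MRP8, which carries the family name but is not an established subunit, was kept apart. In the 4 mcd1-1 libraries and the 4 WT libraries, each lettered A to D, poly(A) RNA was sequenced. The mutation mcd1-1 lies in MCD1, the gene for the kleisin of cohesin, a ring-shaped complex that keeps sister chromatids paired. Both groups were haploid derivatives of the strain W303-1a, were grown in rich YPD medium at 31 °C from an optical density (OD600) of 0.2 for 2 generations, and were harvested in logarithmic phase. Nothing in the labels says that replicates came from separate cultures, so p-values measure the spread between these libraries, which may be technical.

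The mitochondrial ribosome translates the few mRNAs made inside the organelle, most of which encode core subunits of the respiratory chain and of the ATP synthase. Nearly all of its proteins are encoded in the nucleus, made on cytosolic ribosomes and imported, while its ribosomal RNAs and the protein Var1 come from mitochondrial DNA. In yeast the mRNAs of these proteins are known targets of Puf3, an RNA-binding protein that recognises a short UGUA-containing element after the stop codon and promotes mRNA decay during growth on glucose.

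The totals were 22331070 to 58506447 counts per library, and the lowest count of any member in any library was 580, so no member was limited by counting depth. Libraries A and B stood apart from libraries C and D in both genotypes, and results are therefore also given within these sets. The transcript of the mutated gene, MCD1, averaged 311.7 ± 44.6 counts per 1000000 counts (CPM) in mcd1-1 and 80.25 ± 5.2 CPM in WT (SD, n = 4 each), and the counts do not read the mutation itself. Of the 7 a-cell markers, STE2, the receptor for alpha-factor, averaged 276.8 CPM in mcd1-1 and 367.3 CPM in WT, and AGA2, an agglutinin subunit, was the 1 called, higher at 52.8 ± 2.91 CPM in mcd1-1 and 36.1 ± 6.47 CPM in WT; MFA1 and ASG7 also had positive log2 fold changes (0.60 and 0.63), while STE6, MFA2 and BAR1 had negative ones. Of the 4 alpha-cell markers, 3 rose in mcd1-1, to means of 5.38 to 84.6 CPM in mcd1-1 against 0.718 to 28.5 CPM in WT, and their part in the results was not tested. Levels throughout are CPM scaled by TMM, a normalisation that assumes most genes are equal between libraries.

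The Puf3 core was searched as TGTANATA on the sense strand in the 200 bases after each stop codon, in the RefSeq sequence of build R64, because it is the sequence feature these mRNAs are best known for. It was found in 69 of the 71 members (97.2%), against 774 of 5809 other nuclear coding genes tested (13.3%), or 14.3% of all 5880 such genes. RSM22 and MRP8 were the 2 members without it. The sites below are those of the 6 genes that fell most in mcd1-1 with all 4 mutant libraries under all 4 WT libraries, and of MRP20, the subunit gene with the highest fold change. Each is written 5′ to 3′ on the coding strand with the matched bases in capitals, and where a gene held several sites the one shown was chosen for its TGTAAATA form.
RSM26: atcttatatacTGTAAATAgttttatttta
MRPL10: atattctcactTGTACATAccttaagatat
MRPL22: tattgtgattcTGTAAATAacaactagttt
MRP7: ttaagaatgccTGTAAATAttactattttg
MRPL49: gtataaaatcaTGTAAATAacaataaaatt
MRPL23: tcttcaatccaTGTATATAtttatctgtta
MRP20: cccctcacactTGTATATAcggagcaaact
In that order they lie at chrX:619111-619140 on the plus strand, chrXIV:103075-103104 on the minus strand, chrXIV:303532-303561 on the minus strand, chrXIV:621243-621272 on the minus strand, chrX:247005-247034 on the plus strand, chrXV:612535-612564 on the plus strand and chrIV:1278499-1278528 on the plus strand.

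The members held 83 such sites, 38 of the form TGTAAATA, 27 TGTATATA, 17 TGTACATA and 1 TGTAGATA. More than 1 site was found in 13 genes, and RSM19 alone held 3. The first site began 8 to 139 bases after the stop codon, with a median of 51 bases. In 66 genes a C stood 1 or 2 bases before a site. With a window of 100 bases the element was found in 63 members (88.7%) and in 9.38% of other genes. The proteins of the mitochondrial ribosome that the name rule leaves out held the element in 8 of 8 nuclear genes, and the mitochondrial aminoacyl-tRNA synthetases in 13 of 13, whereas the genes named as cytosolic ribosomal proteins held it in 6 of 138 (4.35%). A match of letters is not a measured binding site.

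In the comparison of mcd1-1 with WT, 14 members fell and 0 rose at an adjusted p under 0.05 in edgeR's quasi-likelihood test, with Benjamini-Hochberg adjustment over all 6558 gene models tested. The 14 are 19.7% of the 71 members, all of which passed the low-count filter, and 19.7% of all gene models tested were lower and 20.7% higher by the same rule. In this fit the share of members called lower equalled that over all gene models, whereas in the fit with the replicate letters as a block, given below, the members exceeded it (69.0% against 30.2%). At an unadjusted p under 0.05 in edgeR, 24 members were lower and 0 higher, and no share of all gene models is given for this threshold. By adjusted p, DESeq2 called 21 lower and 0 higher (23.8% and 23.2% of all gene models) and limma-voom 13 lower and 0 higher (19.8% and 20.8% of all gene models). The median log2 fold change of the members was -0.42, against -0.01 over all gene models, and 63 members had a negative and 8 a positive value, against 3320 negative and 3238 positive among all gene models. With library size as the only scaling, 44 members were negative and 27 positive, against 2014 negative and 4544 positive among all gene models. In bulk RNA a smaller number of cells that express a gene and less mRNA per cell cannot be told apart.

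The direction was shared more widely than the calls. Between the quartiles the members ran from -0.55 to -0.27 on the log2 scale, and the whole range was -0.89 for RSM26 to 0.35 for MRP20. All 4 mcd1-1 libraries lay below all 4 WT libraries for 12 members and above them for 0, against 21.0% of all gene models below and 22.1% above. For the other 59 members the groups overlapped.

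**Figure D1:**
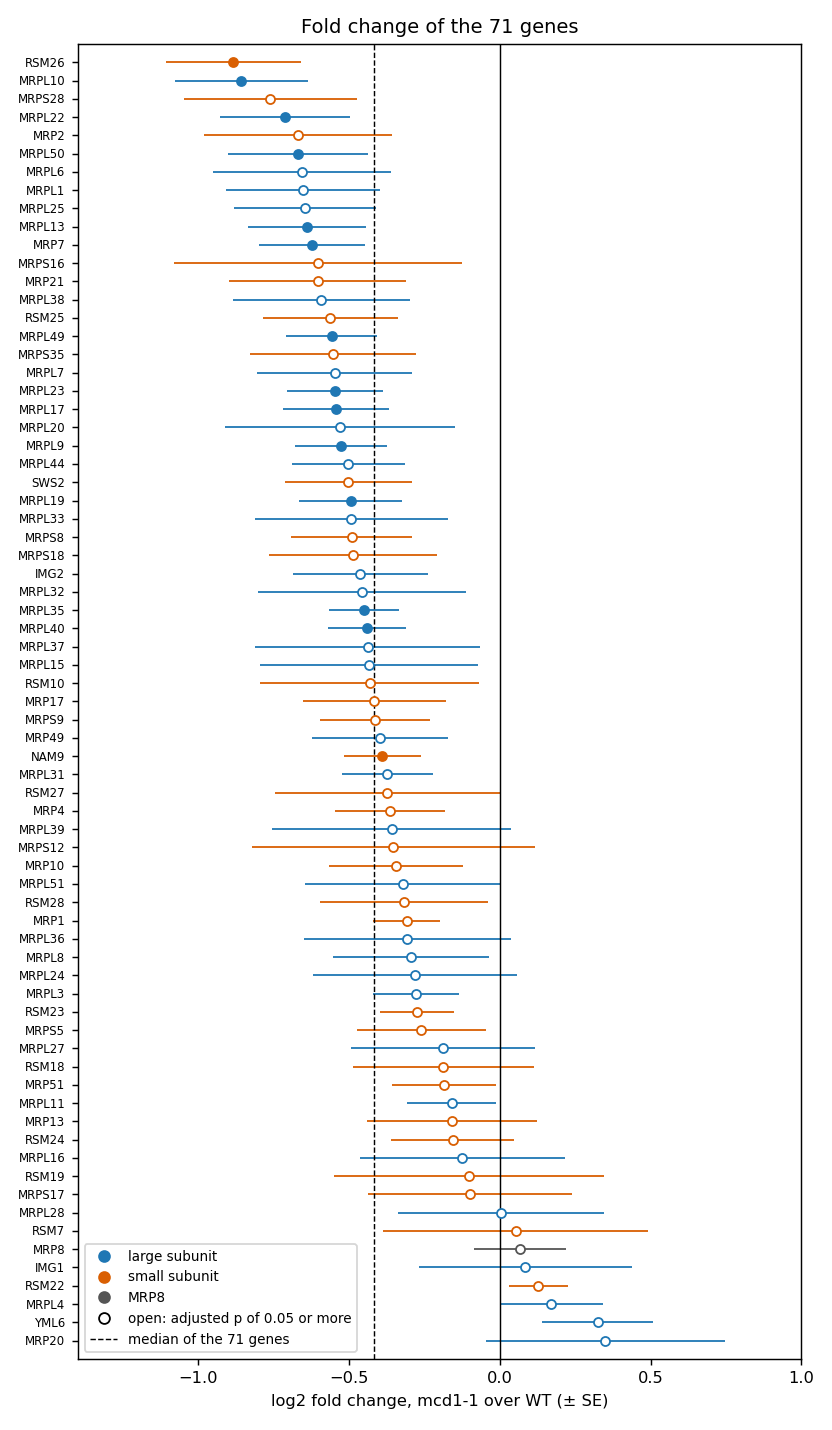
Log2 fold change of mcd1-1 over WT for the 71 genes, each with its standard error, ordered from the lowest to the highest; filled points passed an adjusted p of 0.05 in edgeR. Nearly all points lie left of 0, and the filled ones run from RSM26 at -0.89 to NAM9 at -0.39. Open points in that range have standard errors of up to 0.48 (MRPS16), though that of MRPL25 (0.235) is close to that of the filled MRPL50 (0.232).

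Libraries of the same set moved together in both genotypes, and those of the same letter no more closely than others of the set. Taking the letter as a block moved the count of calls. With the block, 49 members were lower and 0 higher in edgeR (69.0% of 71), against 30.2% of all gene models lower and 29.4% higher. The fold changes themselves stayed where they were, with a median of -0.41. In this fit the difference between libraries A and B and libraries C and D no longer counts as noise.

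The scaling moved the count in the other direction. As a plain share of all counts, the members took 0.686%, 0.659%, 0.436% and 0.451% in mcd1-1 A to D, against 0.704%, 0.688%, 0.439% and 0.424% in WT A to D. These shares were nearly equal between genotypes for each letter. With library size as the only scaling, 0 members were lower in edgeR (8.39% of all gene models were) and 3 were higher, RSM22, MRPL4 and YML6 (37.5% of all gene models were). At an unadjusted p under 0.05 in edgeR, 4 members were higher and 2 lower under this scaling, again with no share of all gene models given. In that fit the median of all gene models stood at 0.33 on the log2 scale and that of the members at -0.08. The members' median minus that of all gene models was -0.40 by library size and -0.41 by TMM. With upper-quartile scaling, 2 members were lower and 0 higher in edgeR, against 14.0% of all gene models lower and 26.5% higher.

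The TMM factors were 1.09 to 1.21 in mcd1-1 and 0.879 to 0.902 in WT, and the cytosolic ribosomal proteins moved with them. The 138 genes matched by name took 5.03 to 6.85% of counts in mcd1-1 and 9.53 to 13.0% in WT. Of these genes 130 fell (94.2%, against 19.7% of all gene models). The match by name takes in RPP1, a subunit of RNase P that is no ribosomal protein, and without it 129 of 137 fell, with a median log2 fold change of -1.19. For each 100 CPM of cytosolic ribosomal protein mRNA there were 10.8, 13.1, 6.37 and 7.14 CPM of member mRNA in mcd1-1 A to D and 5.43, 5.32, 4.25 and 4.45 CPM in WT A to D. The lowest mcd1-1 ratio was above the highest WT ratio. The part of the cytosolic ribosomal proteins in the members' calls was not tested apart from a TMM scaling computed without them, under which 17 members were lower and 0 higher, against 20.8% and 20% of all gene models.

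The large subunit genes summed to 3204, 2683, 1964 and 2006 CPM in mcd1-1 A to D, against 4019, 3954, 2535 and 2374 CPM in WT A to D. The small subunit genes summed to 2892, 2488, 1774 and 1831 CPM in mcd1-1 A to D, against 3623, 3606, 2212 and 2126 CPM in WT A to D. For each letter the mcd1-1 library was the lower one in both subunits, yet A and B of mcd1-1 lay above C and D of WT, so the groups overlapped. The means were 2464 ± 593 CPM in mcd1-1 and 3220 ± 887 CPM in WT for the large subunit, and 2246 ± 539 CPM in mcd1-1 and 2892 ± 835 CPM in WT for the small subunit (SD, n = 4 each). Both differences are smaller than 1 SD of the WT libraries.

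**Figure D2:**
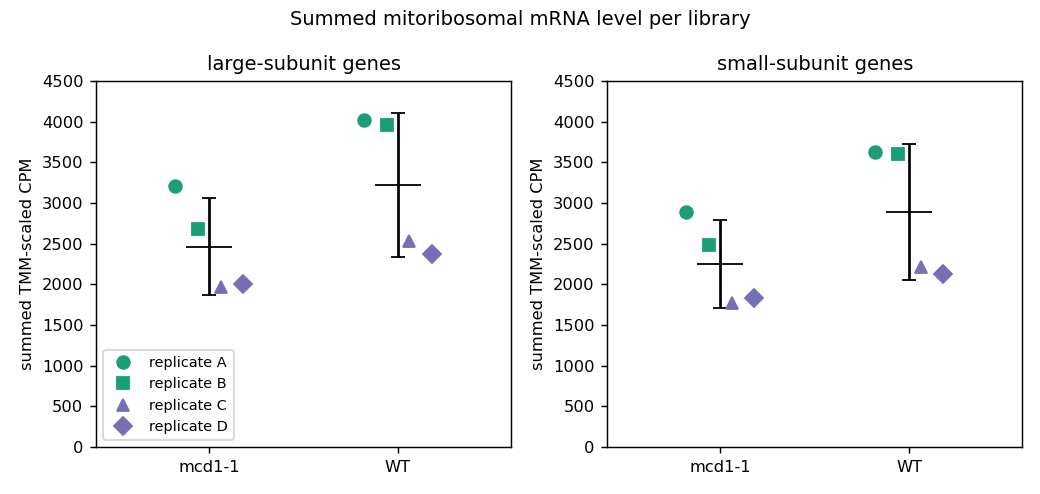
Summed TMM-scaled CPM of the 40 large-subunit genes (left) and the 30 small-subunit genes (right) in each library, with the mean and SD of each group. Libraries A and B stand above C and D in both genotypes, and within each of these sets the mcd1-1 libraries lie below the WT libraries.

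Among the 40 large-subunit genes 12 fell and 0 rose, with a median log2 fold change of -0.45. The share called lower was above the 19.7% of all gene models, of which 20.7% were higher. MRPL10, the counterpart of a bacterial protein of the large subunit (YNL284C, chrXIV:103134-104102), had 69.6, 62.2, 50.4 and 54.1 CPM in mcd1-1 A to D, against 131.2, 138.1, 83.9 and 75.2 CPM in WT A to D. Every mutant library lay below every WT library. MRPL10 had the largest fall of the subunit, a log2 fold change of -0.86 ± 0.22 (SE; edgeR adjusted p = 0.0132). MRPL22 (YNL177C, chrXIV:303686-304615), also a protein with a bacterial counterpart, had 95.5, 84.2, 75.8 and 73.8 CPM in mcd1-1 and 164.5, 175.1, 101.0 and 99.3 CPM in WT. The mutant libraries were again all lower, though mcd1-1 A came close to WT C and D. The log2 fold change of MRPL22 was -0.71 ± 0.22 (edgeR adjusted p = 0.0264).

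MRPL50 (YNR022C, chrXIV:669774-670193), likewise with a bacterial counterpart, had 53.2, 40.7, 38.5 and 40.2 CPM in mcd1-1 A to D and 91.6, 84.1, 51.0 and 48.0 CPM in WT A to D. Here mcd1-1 A was higher than WT C and D, so the groups overlapped, and the fall was called at -0.67 ± 0.23 (edgeR adjusted p = 0.0444). MRPL13 (YKR006C, chrXI:450423-451217), a protein with no bacterial counterpart, had 74.1, 67.2, 52.1 and 53.4 CPM in mcd1-1 and 116.6, 113.9, 81.0 and 73.3 CPM in WT. Only mcd1-1 A against WT D overlapped, and the log2 fold change was -0.64 ± 0.19 (edgeR adjusted p = 0.0266).

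MRP7 (YNL005C, chrXIV:621313-622428), the counterpart of a bacterial large-subunit protein near the peptidyl transferase centre, had 124.9, 126.6, 100.5 and 105.3 CPM in mcd1-1 A to D and 214.9, 199.6, 148.0 and 141.4 CPM in WT A to D. Its groups did not overlap, and the log2 fold change was -0.62 ± 0.18 (edgeR adjusted p = 0.0197). MRPL49 (YJL096W, chrX:246490-246975) had 49.5, 44.6, 43.1 and 39.6 CPM in mcd1-1, against 76.7, 72.5, 58.2 and 52.8 CPM in WT. MRPL23 (YOR150W, chrXV:611999-612490) had 54.6, 50.2, 45.3 and 45.1 CPM in mcd1-1, against 84.0, 81.9, 64.2 and 55.0 CPM in WT. Both have bacterial counterparts, and both had every mutant library below every WT library. Their log2 fold changes were -0.56 ± 0.15 for MRPL49 (edgeR adjusted p = 0.0159) and -0.55 ± 0.16 for MRPL23 (edgeR adjusted p = 0.0229).

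The other 5 large-subunit genes that fell were MRPL17, MRPL9, MRPL19, MRPL35 and MRPL40, with log2 fold changes of -0.54 to -0.44. MRPL9 and MRPL19 overlap a neighbouring gene model, as do MRP4, MRPL38, MRPL51 and RSM7, so their counts may include reads of the neighbour or lose reads to it. MRP20 (YDR405W) stood at the other end of the subunit. It had 159.5, 118.4, 59.3 and 57.3 CPM in mcd1-1 A to D and 101.6, 108.1, 49.9 and 50.2 CPM in WT A to D, higher in the mutant for every letter. Its log2 fold change of 0.35 ± 0.40 did not pass the test (edgeR adjusted p = 0.508), and A and B were far above C and D in both genotypes. With the sets as a block MRP20 was the single member called higher, beside 54 called lower, against 33.7% higher and 34.2% lower among all gene models.

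**Figure D3:**
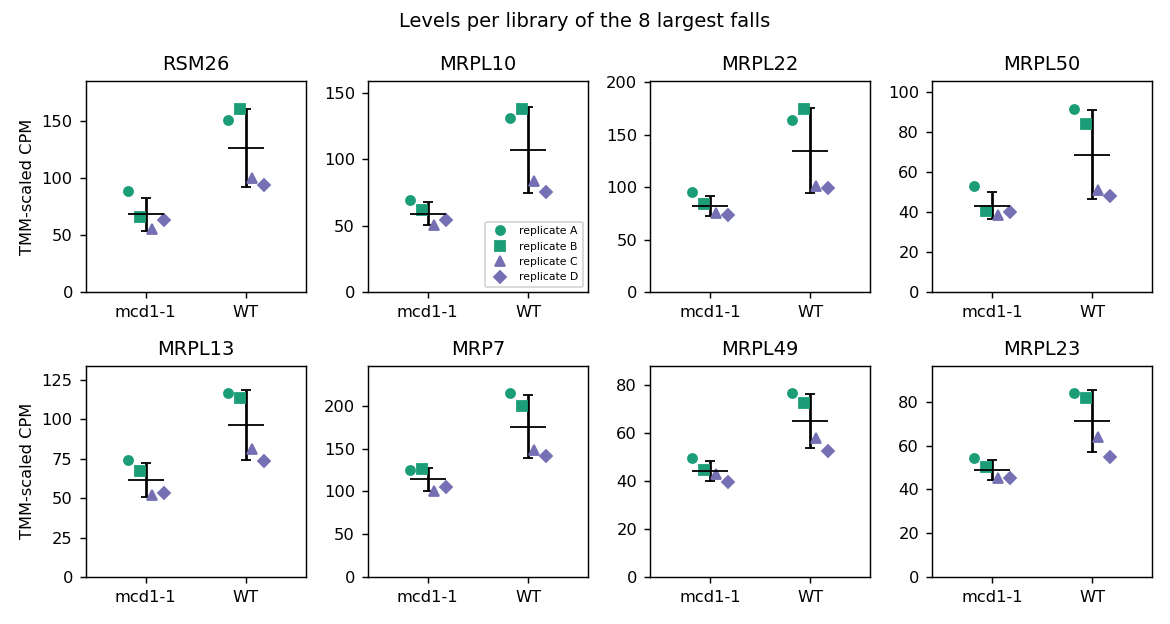
TMM-scaled CPM in each library for the 8 members with the largest falls among those called, mcd1-1 left of WT, with mean and SD; symbols mark the replicate letter. The WT libraries A and B stand highest in each panel, and in MRPL50 and MRPL13 mcd1-1 A reaches the level of the lowest WT libraries.

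Among the 30 small-subunit genes 2 fell and 0 rose, with a median log2 fold change of -0.37. The share called lower, 6.67%, was below the 19.7% of all gene models. RSM26 (YJR101W, chrX:618234-619034), a small-subunit protein with no bacterial ribosomal counterpart that resembles iron and manganese superoxide dismutases, had 88.9, 66.2, 55.2 and 63.1 CPM in mcd1-1 A to D, against 150.5, 160.7, 99.6 and 94.2 CPM in WT A to D. All mutant libraries lay below all WT libraries. The log2 fold change of RSM26 was -0.89 ± 0.22 (edgeR adjusted p = 0.0123), the lowest of all 71 members. NAM9, the counterpart of a bacterial small-subunit protein, had 108.1, 90.3, 110.2 and 110.0 CPM in mcd1-1, against 135.4, 153.2, 133.0 and 127.0 CPM in WT. Its groups did not overlap, and its log2 fold change was -0.39 ± 0.13 (edgeR adjusted p = 0.0349). In addition, MRP1 and RSM23 had every mutant library below every WT library without passing the test, MRP1 with an adjusted p of 0.0516 in edgeR, which was 0.0226 with the letter as a block.

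With the letter as a block, 29 of the 40 large-subunit genes and 20 of the 30 small-subunit genes were lower in edgeR, against 30.2% of all gene models. The difference between the subunits in the number of calls without the block, 12 of 40 against 2 of 30, was not tested. RSM22, whose product resembles methyltransferases, was the small-subunit gene with the highest fold change and 1 of the 2 members without the Puf3 core. Its level hardly varied, at 69.5, 74.0, 72.1 and 73.6 CPM in mcd1-1 A to D and 63.4, 64.7, 67.0 and 69.5 CPM in WT A to D. RSM22 was higher in mcd1-1 for every letter, and its log2 fold change was 0.13 ± 0.10 (edgeR adjusted p = 0.325). MRP8, the other member without the element, had 216.3, 253.0, 258.0 and 233.5 CPM in mcd1-1 and 258.9, 261.1, 203.3 and 194.1 CPM in WT. It was lower in mcd1-1 A and B and higher in mcd1-1 C and D than the WT libraries of the same letters, with a log2 fold change of 0.07 ± 0.15 over all libraries (edgeR adjusted p = 0.755) that took the opposite sign without WT D.

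Calls of single members depended on single libraries. The number called lower was 18 without mcd1-1 A, 6 without mcd1-1 B, 4 without mcd1-1 C, 4 without mcd1-1 D, 4 without WT A, 4 without WT B, 17 without WT C and 22 without WT D, and 0 were higher in any of these fits. Of all gene models, 15%, 13.1%, 14.6%, 15.5%, 16.0%, 15.1%, 18.3% and 19.0% were lower in the same order. The large-subunit count was 14, 5, 3, 3, 3, 3, 14 and 16 in that order, and the small-subunit count 4, 1, 1, 1, 1, 1, 3 and 6. RSM26, MRPL10, MRPL49 and MRPL35 kept the call in each of the 8 fits, with adjusted p-values of 0.00659 to 0.0486 in edgeR. MRPL22, MRPL50, MRPL13 and MRPL23 lost it when library B, C or D of mcd1-1 or library A or B of WT was left out, and MRP7 when C or D of mcd1-1 or A or B of WT was, with adjusted p-values of up to 0.114 in edgeR. NAM9 kept it only without WT D.

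Levels can be compared between genes as CPM per kilobase of coding sequence. By this measure the large-subunit genes had means over the 8 libraries of 69.6 CPM per kb (MRPL35) to 201.3 CPM per kb (MRPL38), with a median of 111.6. The small-subunit genes had means of 36.7 CPM per kb (RSM22) to 243.4 CPM per kb (MRPS12), with a median of 120.5. This ranking did not hold in each library. MRPS12 had 388.7 and 384.6 CPM per kb in WT A and B, but 164.3 and 155.0 CPM per kb in WT C and D. In mcd1-1 C it had 106.3 CPM per kb, below MRP51 at 130.6 CPM per kb. Of the 70 subunit genes, 67 lay within 2-fold of their common median of 114.1 CPM per kb, and 6.63-fold separated the highest from the lowest. MRP8 averaged 363.9 CPM per kb in mcd1-1 and 347.5 CPM per kb in WT, above each subunit gene's mean, though MRPS12 exceeded it in mcd1-1 A and MRPS16 in WT A and WT B. The rank order of the members by CPM per kb had a Spearman's rho of 0.568 to 0.984 between libraries (n = 71 members, which share each library's depth and composition).

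The 3 genes of each subunit with the highest mean CPM per kb over the 8 libraries did not pass the test without the letter as a block. MRPS12, the counterpart of a bacterial protein of the decoding centre, had 175.3, 116.1, 49.1 and 54.5 CPM in mcd1-1 A to D and 179.6, 177.7, 75.9 and 71.6 CPM in WT A to D. The step between B and C was larger in both genotypes than the step between genotypes, and the log2 fold change was -0.35 ± 0.47 (edgeR adjusted p = 0.576). MRPS16 had 114.0, 82.9, 39.1 and 41.3 CPM in mcd1-1, against 156.4, 158.2, 54.0 and 53.0 CPM in WT. It was lower in the mutant for every letter, and its log2 fold change was -0.60 ± 0.48 (edgeR adjusted p = 0.336). MRPL38, whose model overlaps another, had -0.59 ± 0.29 (edgeR adjusted p = 0.137), with 160.6 CPM per kb in mcd1-1 and 242.1 CPM per kb in WT. MRPL39 had a log2 fold change of -0.36 ± 0.40 (edgeR adjusted p = 0.496), and MRPL36 and RSM18 had -0.31 ± 0.34 and -0.19 ± 0.30, values that turned positive for both genes with library size as the only scaling. With the letter as a block, 5 of these 6 genes were called lower in edgeR, at adjusted p-values of 0.0241 for MRPS12, 0.00682 for MRPS16, 0.00711 for MRPL38, 0.0358 for MRPL39 and 0.0385 for MRPL36, while RSM18 was not (0.12).

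Within libraries A and B alone, 48 members were lower and 3 higher in edgeR (MRP20, MRPL4 and YML6), against 32.9% of all gene models lower and 34.8% higher. Within C and D alone, 51 were lower and 3 higher (MRP20, RSM22 and MRP8), against 37.1% lower and 38.8% higher. Lower in both sets were 42 members, and 25.8% of all gene models were. With only 2 libraries per genotype in a set, the sets give many calls at a small spread, and the libraries of a set are not known to be separate cultures. The median log2 fold change of the members was -0.47 in A and B and -0.28 in C and D, and 63 members were negative in both sets.

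The size of the difference between the sets was tested as an interaction. The sets were recognised from the same counts and hold 2 libraries per genotype, so these p-values only describe the libraries at hand. The interaction passed for 14 of the 71 members in edgeR, a smaller share than the 36.7% of all gene models. In 12 of them the value was more positive in C and D. MRPL22 had a log2 fold change of -0.92 in A and B and -0.38 in C and D (interaction 0.50, adjusted p = 0.00944), and MRPL10 had -1.03 in A and B and -0.56 in C and D (interaction 0.43, adjusted p = 0.0253). MRP8 changed sides, with -0.15 in A and B and 0.34 in C and D (interaction 0.45, adjusted p = 0.0302). The 2 members that went the other way were both large-subunit genes with positive values over all libraries. YML6 had 106.9, 116.7, 69.8 and 73.1 CPM in mcd1-1 A to D and 79.2, 72.3, 74.2 and 66.9 CPM in WT A to D, so that only A and B of the mutant stood out (interaction -0.54, adjusted p = 0.0092). MRPL4 had an interaction of -0.47 (adjusted p = 0.0132).

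**Figure D4:**
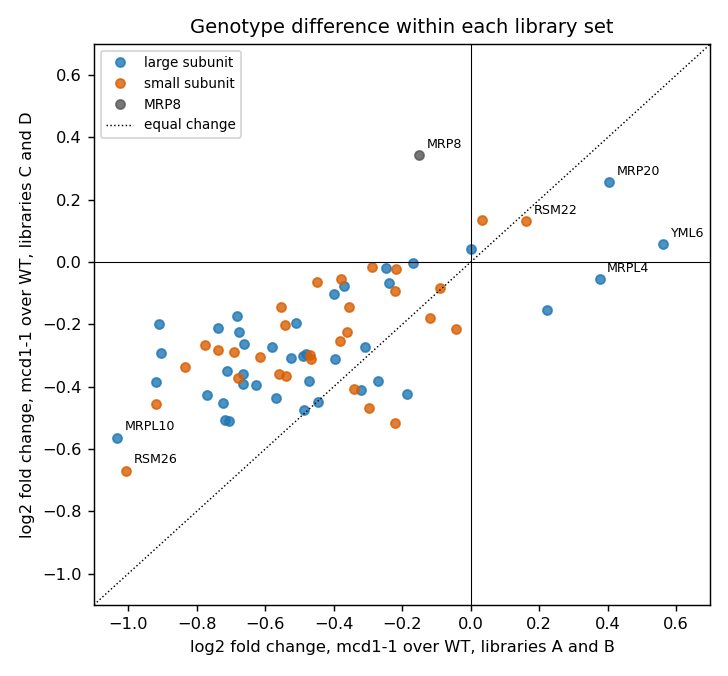
Log2 fold change of mcd1-1 over WT within libraries A and B (horizontal) and within libraries C and D (vertical) for each member, with the line of equal change. Most points have 2 negative values and lie above the line, so that the fall was larger in A and B; MRP8, YML6 and MRPL4 stand away from the rest.

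The sets themselves differed more than the genotypes in these genes. Members were lower in C and D than in A and B by a median of -0.60 on the log2 scale, against -0.03 over all gene models, with a range of -1.42 for MRPS16 to 0.11 for MRP1. No test is given, since the sets were recognised from the same counts. The difference went with length: its median was -0.87 for the 31 members with a coding length under 600 bp and -0.52 for the 40 longer ones. Its Spearman's rho was 0.503 with coding length over the members, and 0.505 with the span from start to end of each model over all gene models. The genotype difference did not go with length in this way. Its median was -0.46 for the shorter and -0.38 for the longer members. Its rho was 0.106 with coding length over the members and 0.038 with the span of each model over all gene models. Of the 31 shorter members 4 were called lower and of the 40 longer ones 10, against 19.7% of all gene models. With the letter as a block the order of the shares reversed. In that fit 26 of the 31 shorter and 23 of the 40 longer members were lower, against 30.2% of all gene models. The difference between the length groups in the number of calls was not tested. The points of these correlations are genes that share the same libraries.

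**Figure D5:**
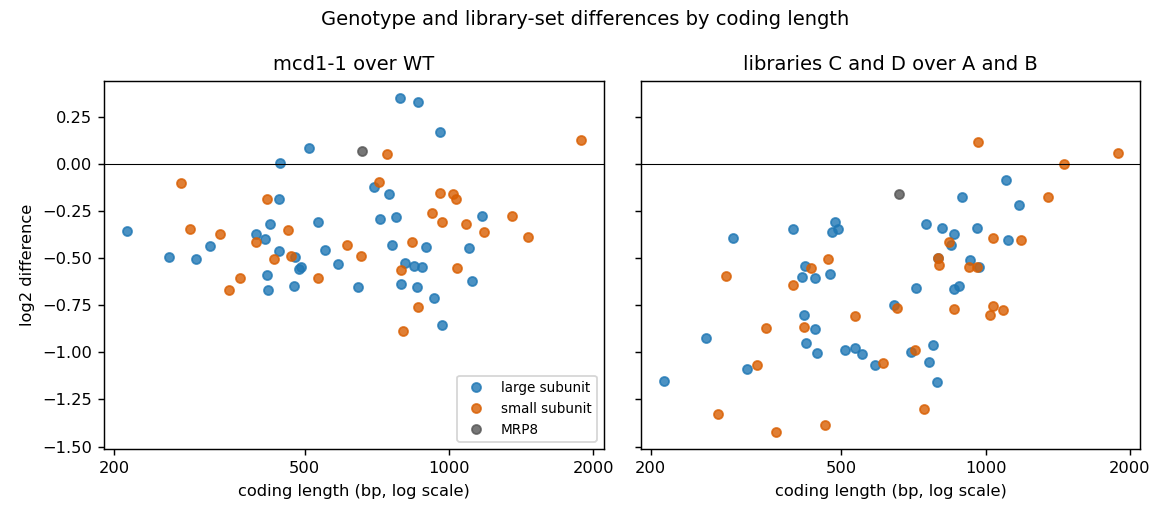
Log2 difference of each member against its coding length on a log axis, for mcd1-1 over WT (left) and for libraries C and D over A and B (right). Short genes lie lowest in the right panel, down to -1.42 for MRPS16, while the left panel shows no such slope.

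The members were also divided by class. The 44 subunits with a counterpart in bacterial ribosomes had a median log2 fold change of -0.44, with 10 lower (22.7%) and 0 higher. The 26 without one had a median of -0.39, with 4 lower (15.4%) and 0 higher. The difference between these classes was not tested. Of all gene models 19.7% were lower and 20.7% higher. The 69 members with the Puf3 core had a median of -0.43, and 20.3% of them were lower. They held all 14 calls, but a core in 69 of 71 members leaves little room for any other result. RSM22 and MRP8, the 2 without it, had a median of 0.10 and are too few for a comparison. Among the other genes the 774 with the core had a median of -0.11, with 20.5% lower and 11.1% higher, and the 5035 without it had a median of 0.00, with 1024 lower and 1090 higher.

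Sequences before the start codon were searched for 3 motifs of genes for ribosomes and respiration. Within 250 bases, on either strand, AAAATTTT, known from promoters of ribosome biogenesis genes in yeast, was found in 1 member (1.41%), MRPS16, and in 8.87% of other genes. Those 515 other genes had a median log2 fold change of -0.42, with 36.3% lower. GATGAG, known from the same promoters, was in 10 members (14.1%) and 16.5% of other genes. CCAAT, the core bound by the Hap complex that activates respiratory genes, was in 20 members (28.2%) and 35.9% of other genes. The members with CCAAT had a median of -0.35 and those without it -0.43.

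Genes that work with the mitochondrial ribosome were read from the same fit. For all the lists below, 19.7% of all gene models were lower and 20.7% higher in this fit. With the letter as a block the shares were 30.2% lower and 29.4% higher. Of 9 further mitoribosomal proteins outside the name rule, VAR1 of the mitochondrial genome did not pass the count filter, and 1 of the 8 tested was lower and 0 higher, with a median of -0.39. That gene was MNP1, the counterpart of the bacterial stalk protein, which averaged 92.0 ± 35.8 CPM in mcd1-1 and 196.4 ± 88.0 CPM in WT (SD, n = 4 each), a log2 fold change of -1.09 ± 0.36 (edgeR adjusted p = 0.0382). The MNP1 groups overlapped, and its call was lost when library B, C or D of mcd1-1 or library A or B of WT was left out (adjusted p of 0.0893 to 0.1 in edgeR). RTC6, a large-subunit protein, had -0.69 ± 0.28 (edgeR adjusted p = 0.0725). With the letter as a block 5 of the 8 were lower, RTC6 among them (edgeR adjusted p = 0.0104).

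Of 7 genes for mitoribosome assembly and rRNA modification, 1 was lower (14.3%, against 19.7% of all gene models) and 0 higher. Their median of -0.01 stood at 0.33 by library size alone. CCM1, a pentatricopeptide protein needed for the small-subunit rRNA, had a log2 fold change of -0.47 ± 0.12 (edgeR adjusted p = 0.0128) and non-overlapping groups. MRM1, a methyltransferase of the large rRNA, had -0.28 ± 0.14 (edgeR adjusted p = 0.149), a value that turned positive by library size alone and passed the test with the letter as a block (edgeR adjusted p = 0.0294), where 2 of the 7 were lower. Of 11 mitochondrial translation factors, 1 rose and 2 fell (3 and 2 with the letter as a block). The falls were 18.2% of the list, and its median of -0.01 stood at 0.33 by library size alone. PTH1, a peptidyl-tRNA hydrolase, averaged 15.4 ± 2.5 CPM in mcd1-1 and 8.84 ± 0.735 CPM in WT (SD, n = 4 each; log2 fold change 0.80 ± 0.16, edgeR adjusted p = 0.00438). MRF1, the release factor, averaged 39.98 ± 4.25 CPM in mcd1-1 and 72.3 ± 16.6 CPM in WT (-0.85 ± 0.18, edgeR adjusted p = 0.00484), and TUF1, the elongation factor that brings aminoacyl-tRNA to the ribosome, fell by 0.83 ± 0.20 on the log2 scale (edgeR adjusted p = 0.00895).

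Of 13 mitochondrial aminoacyl-tRNA synthetases, which charge the tRNAs used by this ribosome, 5 were lower (38.5%, against 19.7% of all gene models) and 0 higher. Their median of -0.33 stood at 0.01 by library size alone. The 5 were MSD1 (-0.45 ± 0.11, edgeR adjusted p = 0.0088), MSE1 (-0.74 ± 0.19, edgeR adjusted p = 0.0123), MSW1, DIA4 and MSM1. With the letter as a block 7 of the 13 were lower. Of 18 translational activators and partners, which act on single mitochondrial mRNAs, 3 rose and 3 fell (5 and 4 with the letter as a block). The falls were 16.7% of the list, and its median of -0.06 stood at 0.29 by library size alone. ATP25 fell by 0.67 ± 0.13 (edgeR adjusted p = 0.00388) and CBP3, which works in cytochrome b synthesis, by 0.45 ± 0.10 (edgeR adjusted p = 0.0079), both on the log2 scale. Of 10 genes for mitochondrial transcription and RNA stability, 3 fell and 0 rose, with a median of -0.02 that stood at 0.32 by library size alone. MSS116, a helicase for mitochondrial introns, fell by 0.78 ± 0.14 (edgeR adjusted p = 0.00265) and MTF1, the mitochondrial transcription factor, by 0.72 ± 0.15 (edgeR adjusted p = 0.00553). By library size alone, the calls of all the genes named as falling in these lists were lost except those of MRF1 and MSS116, with the values of DIA4 and MSM1 turning positive (0.0079 for DIA4 and 0.014 for MSM1), and PTH1 stayed higher.

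Of 8 regulators known to act on these or on the cytosolic ribosomal genes, 2 were higher and 0 lower. Of all gene models 20.7% were higher and 19.7% lower. CRF1, a corepressor of cytosolic ribosomal protein genes, averaged 47.7 ± 6.74 CPM in mcd1-1 and 19.9 ± 7.85 CPM in WT (SD, n = 4 each; log2 fold change 1.26 ± 0.27, edgeR adjusted p = 0.00578). IFH1, their coactivator, had 384.9, 375.6, 421.8 and 393.8 CPM in mcd1-1 A to D and 69.5, 77.9, 242.3 and 267.2 CPM in WT A to D. The WT libraries of IFH1 fell into the same sets as the members did, and its call (1.26 ± 0.43, edgeR adjusted p = 0.0407) was lost when any 1 mutant library, WT A or WT B was left out (adjusted p of 0.0673 to 0.0813 in edgeR). PUF3 itself averaged 77.3 ± 18.4 CPM in mcd1-1 and 62.9 ± 21.2 CPM in WT, with a log2 fold change of 0.30 ± 0.26 (edgeR adjusted p = 0.393); with the letter as a block its adjusted p in edgeR rounded to 0.05 and it was called higher. HAP4, the activating subunit of the Hap complex, had a log2 fold change of 0.02 (edgeR adjusted p = 0.934).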

How the data were processed

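The authors deposited raw read counts per gene model for 8 libraries, without normalisation. Per the submitters' processing notes, the tools included STAR 2.5.3a, featureCounts 1.6.0, Trim Galore 0.4.3, bcl2fastq 2.9 and Picard, and the build was R64. How strand was treated is not given in the sources used. Of the deposited lines, 4 were empty as received. Coordinates equalled RefSeq's for all 71 members, and none had a near-identical copy (90% over 100 bp, blastn 2.17.0).

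The counts were tested as deposited in edgeR 4.0.16 (R 4.3.3): filterByExpr, TMM, quasi-likelihood F test with group as the only term, 2-sided, on 6558 gene models (common biological coefficient of variation 0.253). Benjamini-Hochberg adjustment ran over all of these, with a threshold of 0.05 on the adjusted p-value. Standard errors follow from the F statistic. The script was tested on simulated counts. Alternatives used DESeq2 1.42.0 and limma 3.58.1.

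Letters were taken as pairs in the block fit, although no label says that libraries of the same letter belong together. Deviations from the group means correlated at 0.606, 0.452, 0.633 and 0.598 between the mcd1-1 and WT libraries of the same letter. Other letters of the same set correlated as highly, at 0.49 to 0.653, and letters across sets at -0.643 to -0.448. The letters therefore showed no pairing beyond that of the sets. Chi-square per degree of freedom between replicates was 11.9 to 101 within sets and 315 to 541 across them, so no library was counted as a duplicate.

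Members named are the 8 largest falls among those called (0 rises were called), the 3 highest levels per kb in each subunit, the extreme fold changes of each subunit and MRP8; in each companion list, the 2 smallest p. NAM9, MRP1, RSM23, YML6, MRPL4, MRPL35, the other called genes, PUF3, HAP4, RPP1, MCD1 and the a-cell markers other than AGA2 and BAR1 were named after their values were seen. The members and lists were chosen with earlier results of these data known.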

Additional observations from a re-analysis of the deposited data

Results flagged for a closer look

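In mcd1-1, MRPL50 stood at 53.2 CPM in library A against 38.5 to 40.7 CPM in libraries B to D, a gap of 0.851 of the range of the 4 libraries, above the critical value of Dixon's test for 4 samples. RPL9B, a cytosolic ribosomal protein gene with 212.5 ± 42.1 CPM in mcd1-1 and 599.5 ± 68.9 CPM in WT, had mcd1-1 B at 149.6 CPM, with a gap of 0.914 of the range. Of 92 groups of 4 libraries examined for the named genes and sums, these 2 passed the critical value, and chance alone flags about 1 in 20.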

How the results depend on the processing

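The median of the members stayed negative in all 23 other settings, and minus the median of all gene models it was -0.58 to -0.29 on the log2 scale. The number called lower (14 of all members, 12 large-subunit, 2 small-subunit) was 2, 1 and 1 with upper-quartile scaling and 0, 0 and 0 with library size alone. It was 49, 29 and 20 with a replicate block by letter, 54, 31 and 23 with the set as a block, 48, 28 and 20 in A and B only and 51, 30 and 21 in C and D only. The count called higher (0) was 3 with library size alone, 1 with the set block, 3 in A and B only and 3 in C and D only. Library size alone was also run, after the data were seen, with the set block (10 lower, 7 of them large-subunit, and 11 higher) and with the replicate letter block (6 lower, 4 of them large-subunit, and 7 higher). Over all gene models, 16.0% were lower and 53.4% higher in the first of these fits, and 13.5% and 48.5% in the second. Small-subunit falls numbered 1 with a filter of 10 CPM in 4 libraries and 6 in DESeq2. Leaving out 1 library gave 4 to 22 members lower, 3 to 16 large-subunit and 1 to 6 small-subunit.

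Library size alone ended all 14 calls, and upper-quartile scaling all but RSM26 and MRPL10. MRPL50 lost its call in limma-voom as well, and also with the 10 CPM filter. Signs turned under library size alone, with the set block and with the replicate letter block, for MRPL36 (0.036, 0.025 and 0.022), RSM18 (0.16, 0.16 and 0.16) and MRM1 (0.063, 0.05033 and 0.0504). MRP8 was at -0.15 in A and B only and at -0.0060 without WT replicate D. With the replicate letter block, named genes not called without it and called with it were MRPL38, MRPL39, MRPL36, MRPS12, MRPS16, RTC6, MRM1 and the a-cell marker BAR1, and it ended no call of a named gene. Of the named-gene values, 719 kept direction and side of the threshold, 76 lost the call, 44 gained one and 11 changed sign. The causes were not tested. RLE scaling gave 16 lower, TMM without cytosolic ribosomal protein genes 17, no filter 14 and the robust fit 14. Over all gene models, 20.4%, 20.8%, 19.6% and 19.5% were lower in these fits. The lowest count of a member was 580.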
